A study of Aspergillus aculeatus with 24 samples.

Results

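BCC56535 is a strain of Aspergillus aculeatus, a black mould valued for the plant cell wall enzymes it releases. The response of this strain to its growth medium was followed in 8 of the 24 libraries of the series. All 8 libraries labelled BCC56535 were taken, 4 from mycelium grown with wheat bran and soybean and 4 from mycelium grown with glucose. Each medium had 2 libraries from day 3 (72 h) and 2 from day 6 (144 h), labelled as biological replicates A and B. All cultures were aerobic and at 30 °C, and the labels give no gene deletion, transgene or added agent for any group. The other 16 libraries belong to the strains BCC199 and HUT2365, grown in the same 2 media for the same times with 2 libraries per group. Separate cultures are not stated for A and B, so the p-values reflect only how far these libraries scatter, and that scatter may be technical.

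In filamentous fungi, glucose is a preferred carbon source, and genes for the breakdown of polymeric plant material are commonly kept low while it is plentiful. Wheat bran and soybean supply cellulose, hemicellulose, pectin, starch and protein, which the hyphae must cleave outside the cell before taking up the sugars and amino acids. Cellulases, hemicellulases and proteases are the classes of secreted enzyme best known from such cultures. The deposited table gives gene IDs without names, and 0 of its 8615 IDs could be paired with the 11152 reference genes of assembly Aspac1. The results are therefore given by ID, with no function attached, and the labelled species and cell type could not be checked against marker genes. A lower value can mean fewer hyphae that express an ID or less RNA per hypha, and these cannot be told apart in RNA from whole mycelium.

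The 8 libraries held 20902450 reads (glucose, day 6, replicate A) to 27299213 reads (glucose, day 3, replicate B), recovered from the deposited values as described in the processing section. Per library, 152 to 236 IDs were without reads. From 4.12% to 6.29% of reads fell on the 10 most abundant IDs, with the highest shares in the glucose libraries of day 3 (5.76% and 6.29%). Replicates differed by more than sampling noise in all 4 groups, with a median chi-square over IDs of 12.4 to 26.3, where counting error alone gives 0.455. Across IDs, log2 levels of replicate B minus A had an SD of 0.788 and 0.713 in glucose on day 3 and day 6, and 0.560 and 0.631 in wheat bran-soybean. Levels below are normalized reads, the deposited values with their constant of 1 removed, and each pair of values is replicate A followed by replicate B. Tests covered the 8295 IDs whose deposited value reached 10 in 2 or more of the 8 libraries, and 320 IDs were left out.

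Medium was the main axis of difference between these libraries. It accounted for 55.7% of the variance of log2 levels over the 8 libraries, day for 19.8%, the combination of medium and day for 13.6%, and the spread between replicates for 10.9%. On the first principal component, which held 56.3% of the variance, the 4 glucose libraries lay between -79.5 and -57.5 and the 4 wheat bran-soybean libraries between 59.7 and 80.8. The second component, with 20.6%, separated the days in both media. Its span between days was wider in wheat bran-soybean (62.5 and 54.5 on day 3, -51.8 and -48.8 on day 6) than in glucose (16.7 and 23.6, then -34.0 and -22.7). The third component, with 12.7%, ran in opposite directions in the 2 media, from -43.8 and -37.4 up to 48.9 and 40.6 in glucose and from 16.2 and 18.5 down to -21.0 and -22.0 in wheat bran-soybean.

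The first question was which IDs responded to the medium on average over both days. The common medium effect is the mean of the day 3 and day 6 differences, wheat bran-soybean minus glucose, on the log2(deposited value + 1) scale, which understates the change of low IDs. By limma with Benjamini-Hochberg adjustment at 0.05, it was called for 3692 of 8295 IDs (44.5%). Of these, 1833 were higher in wheat bran-soybean (22.1%) and 1859 lower (22.4%), so the calls were split almost evenly between the directions. The median change among the called IDs was 1.28 for the higher and -1.29 for the lower, and the smallest change called was 0.379 in size. At least 2-fold changes were called for 2371 IDs, at least 10-fold changes for 399 (195 higher, 204 lower) and at least 100-fold changes for 61 (20 higher, 41 lower).

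All 4 wheat bran-soybean libraries lay above or below all 4 glucose libraries, over both days, for 2310 of the 8295 IDs (27.8%), 1127 above and 1183 below. Among the called IDs this held for 2155, 1061 higher and 1094 lower. For the remaining called IDs, the ranges of the media over both days overlapped. As a description of size, the 1833 higher IDs took 9.70% to 11.8% of normalized reads in the glucose libraries and 29.3% to 33.3% in the wheat bran-soybean libraries. The 1859 lower IDs took 33.6% to 38.5% in glucose and 12.3% to 14.7% in wheat bran-soybean. These shares follow from how the IDs were selected and carry no test.

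The share of IDs called for the common effect was similar over the range of levels. With the IDs cut into 3 equal groups by mean level, it was 41.6% in the lowest group (3.87 to 531 normalized reads), 45.3% in the middle group and 46.6% in the highest (2046 to 147937). The median standard error of the common effect was 0.306 in the lowest group and 0.196 and 0.194 above it.

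Among IDs with a common effect and no call for a difference between days, 2830 in all, 1348 were higher in wheat bran-soybean with a median change of 1.23 and 1482 were lower with a median of -1.26. The largest rise among them was that of acu05036_1. Its level was 3.29 and 6.64 in glucose on day 3, 11.4 and 32.6 in glucose on day 6, 6188 and 3525 in wheat bran-soybean on day 3, and 53429 and 37227 in wheat bran-soybean on day 6. Every wheat bran-soybean library lay more than 2 orders of magnitude above every glucose library. The common effect was 10.23 (SE 0.36, adjusted p = 7.5e-07, limma). Within wheat bran-soybean the level also rose from day 3 to day 6, by 3.25 on the log2 scale (adjusted p = 0.0039, limma), while the medium effect itself was not called as different between days (1.59, adjusted p = 0.16, limma).

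The second largest rise was that of acu03517_1, which was at 0 and 2.85 in glucose on day 3, 1.26 and 2.88 in glucose on day 6, 2694 and 2238 in wheat bran-soybean on day 3, and 12248 and 3902 in wheat bran-soybean on day 6. It was nearly silent in glucose, with 7 reads over 4 libraries, and the media did not overlap. The ratio of normalized reads was 1620 on day 3 (95% exact interval 554 to 7860, 3 reads in glucose) and 3630 on day 6 (1420 to 13300, 4 reads in glucose). These intervals cover counting error only. This gave a common effect of 10.19 (SE 0.44, adjusted p = 2e-06, limma).

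The largest fall was that of acu02372_1. Its level was 17958 and 16442 in glucose on day 3 and 21533 and 18559.9 in glucose on day 6, against 19.6 and 0 in wheat bran-soybean on day 3 and 0 and 0 on day 6. The ID was among the abundant ones in glucose (rank 258 of 8615 by mean) and at or near 0 reads in the other medium. The drop was at least 6560-fold on day 6, computed against a floor of 3 reads per library. The common effect was -12.32 (SE 0.63, adjusted p = 5e-06, limma), a fitted value that depends on the constant added before taking logs.

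The next largest fall was that of acu00879_1, with 215 and 29562 in glucose on day 3, 36668 and 49064 in glucose on day 6, 0 and 0 in wheat bran-soybean on day 3, and 1.06 and 0 on day 6. A single read was counted in the 4 wheat bran-soybean libraries together. The glucose replicates of day 3 stood more than 100-fold apart, replicate A being the low one, and the media still did not overlap. The common effect was -12.19 (SE 1.26, adjusted p = 0.00017, limma). On day 6, where the glucose replicates were close, the ratio of glucose to wheat bran-soybean was 85900 (95% exact interval 15400 to 3390000, 1 read in wheat bran-soybean).

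**Figure D1:**
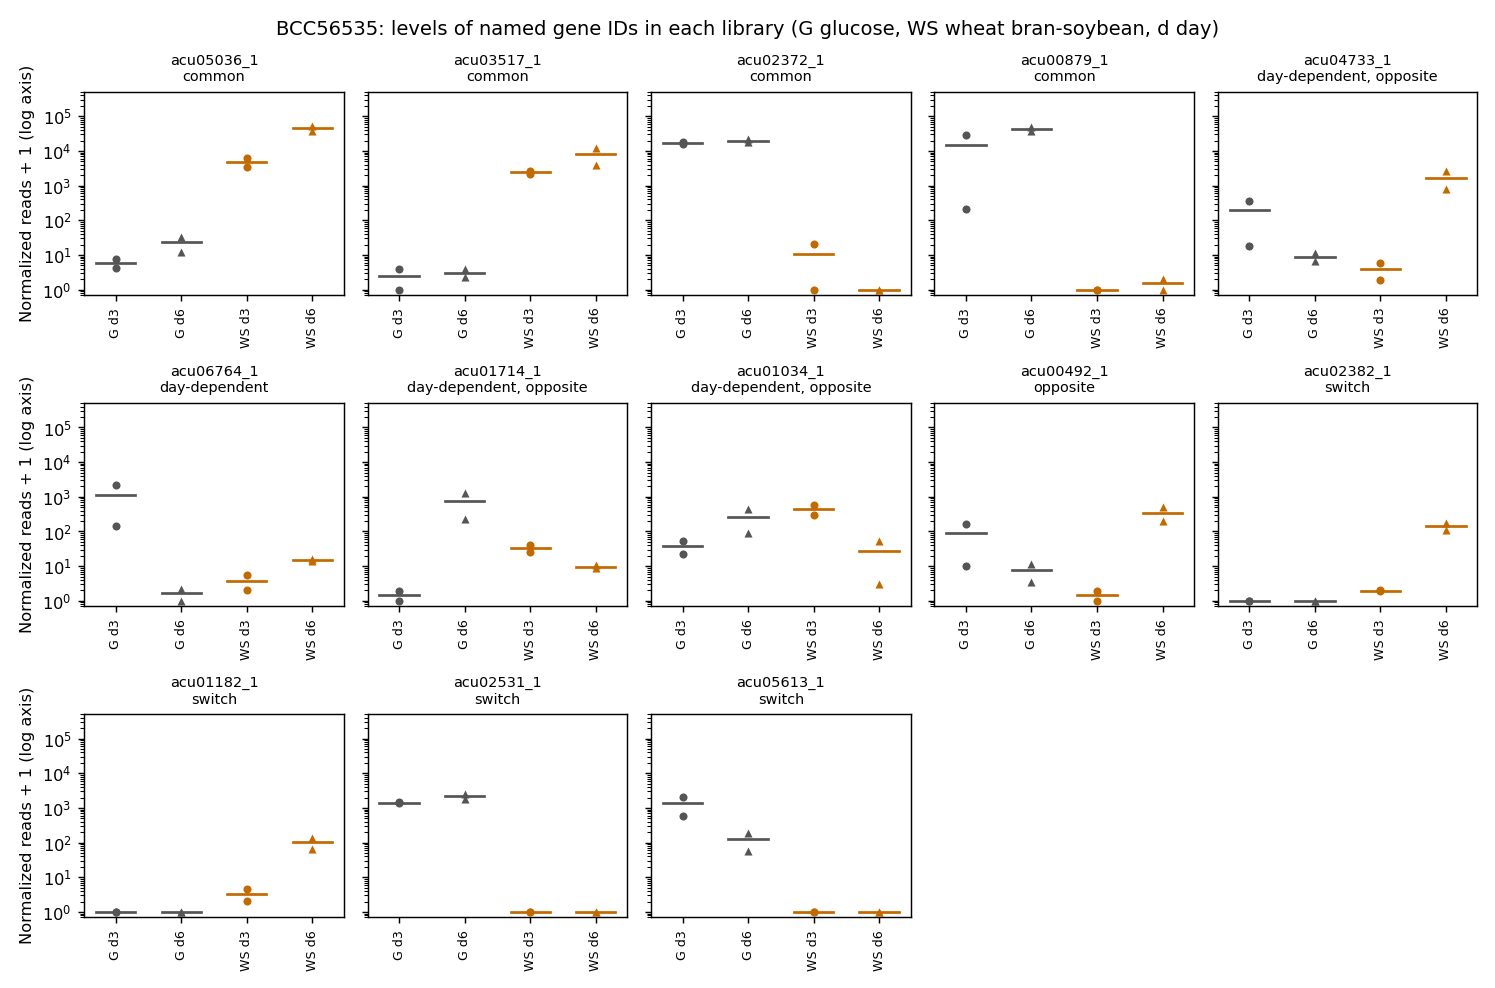
Levels of 13 named IDs in each of the 8 BCC56535 libraries (normalized reads + 1, log axis), points for libraries, bars for the mean of the 2 libraries of a group, circles for day 3 and triangles for day 6. acu05036_1 lies at 3.29 to 32.6 in glucose and 3525 to 53429 in wheat bran-soybean, and acu04733_1 exchanges the order of the media between the days.

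An on or off pattern, with 0 reads in all 4 libraries of a medium, was rare among IDs with an appreciable level in the other. No reads were found in any glucose library for 61 IDs and in any wheat bran-soybean library for 74 IDs, of which 33 are in both counts. Of the IDs at 0 in glucose, 5 passed the filter on low values and 0 had a mean of at least 100 over the wheat bran-soybean libraries. Of those at 0 in wheat bran-soybean, 5 passed and 2 had a glucose mean of at least 100.

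The first of the latter was acu02531_1, at 1514 and 1354 in glucose on day 3, 2550.2 and 1806 in glucose on day 6, and 0 in all 4 wheat bran-soybean libraries. It was at least 491-fold lower on day 3 and at least 712-fold lower on day 6 (common effect -9.78, SE 0.27, adjusted p = 3.7e-07, limma). The ID was picked for its 0 reads in wheat bran-soybean, so this test adds no support. Groups with 0 in both libraries also have no spread, which lowers the SE. The other was acu05613_1, at 2119.6 and 592 in glucose on day 3 and 56.8 and 193 on day 6, and 0 in wheat bran-soybean. Here the glucose level itself fell with time, by 3.39 on the log2 scale (adjusted p = 0.024, limma), so the bound shrank from at least 464-fold on day 3 to at least 40.8-fold on day 6. No read of acu05613_1 was counted in any of the 16 libraries of the other strains.

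In the opposite direction, 2 IDs with 0 reads in glucose reached a mean of at least 100 on day 6 alone. For acu02382_1, the wheat bran-soybean libraries held 0.935 and 1.01 on day 3, which is 1 read each, and 112 and 169 on day 6. For acu01182_1, they held 3.74 and 1.01 on day 3 and 137 and 64.6 on day 6. Both IDs were therefore near the limit of detection on day 3 and well above it 72 h later. The day 6 levels were at least 42.3-fold and at least 30.2-fold higher than in glucose. The medium effect differed between days for both (5.56, adjusted p = 0.0083, and 4.53, adjusted p = 0.021, limma). Both IDs were picked for 0 reads in glucose, where the change with time was 0. The values 5.56 and 4.53 are thus the changes within wheat bran-soybean alone, and the glucose groups have no spread, which lowers the SE.

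Abundant IDs were called about as often as all IDs. Among the 100 IDs with the highest mean in glucose, 48 were lower in wheat bran-soybean and 2 higher, and among the 100 with the highest mean in wheat bran-soybean, 40 were higher and 4 lower. The directions follow in part from how these lists were picked and carry no test. Of the 100 IDs with the highest mean in glucose and the 100 with the highest mean in wheat bran-soybean, 47 were shared (48 on day 3 and 42 on day 6). Between days, 62 of the top 100 were shared in glucose and 55 in wheat bran-soybean. The most abundant ID in glucose, acu03175_1, had 218115 and 249034 in glucose on day 3, 116019 and 165254 on day 6, 127562 and 162167 in wheat bran-soybean on day 3, and 48883 and 96463 on day 6. The media overlapped, and the common effect of -0.85 (SE 0.3, adjusted p = 0.046, limma) was just past the threshold. The call was lost in 10 alternative analyses, among them quantile normalization (adjusted p = 0.11) and the omission of any of 7 of the 8 libraries in turn (adjusted p = 0.051 to 0.15).

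The second most abundant ID in glucose, acu01168_1, had means over 4 libraries of 154940.0 ± 23082 (SD, n = 4) in glucose and 116832 ± 22244 in wheat bran-soybean, a difference of -0.42 that was not called (adjusted p = 0.22, limma). The most abundant ID in wheat bran-soybean, acu06065_1, had 131566 ± 18285 in glucose and 149165 ± 19914 in wheat bran-soybean (0.18, adjusted p = 0.57, limma). The second there, acu00075_2, had 96589.7 ± 36351 and 148990.0 ± 43532 (0.66, adjusted p = 0.063, limma). None of these 3 differences passed the test, and that of acu00075_2 passed it in 4 alternative analyses, including the fit of all 24 libraries (adjusted p = 0.019). All 4 of these IDs were in the top 10 of both media.

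The next question was how far the medium effect held on each day. On day 3 it was called for 3198 IDs (38.6%), 1614 higher (19.5%) and 1584 lower (19.1%). On day 6 it was called for 2651 IDs (32.0%), 1282 higher (15.5%) and 1369 lower (16.5%). The day 3 and day 6 differences share no library, but their tests use the same estimate of the spread, taken from all 8 libraries. The calls of the 2 days are therefore not independent. Both called the same direction for 1288 IDs, 634 higher and 654 lower, and opposite directions for 156, and together these make up 45.2% of the day 3 calls and 54.5% of the day 6 calls. A call on day 3 without one on day 6 was made for 1754 IDs and the reverse for 1207, which does not by itself show a difference between days. The day counts depended on single libraries: without wheat bran-soybean replicate A or B of day 3 the day 3 count was 1986 or 1878, and without wheat bran-soybean day 6 replicate A the day 6 count was 1451. In the first 2 of these fits the day 6 count was the higher, at 2329 and 2321.

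**Figure D2:**
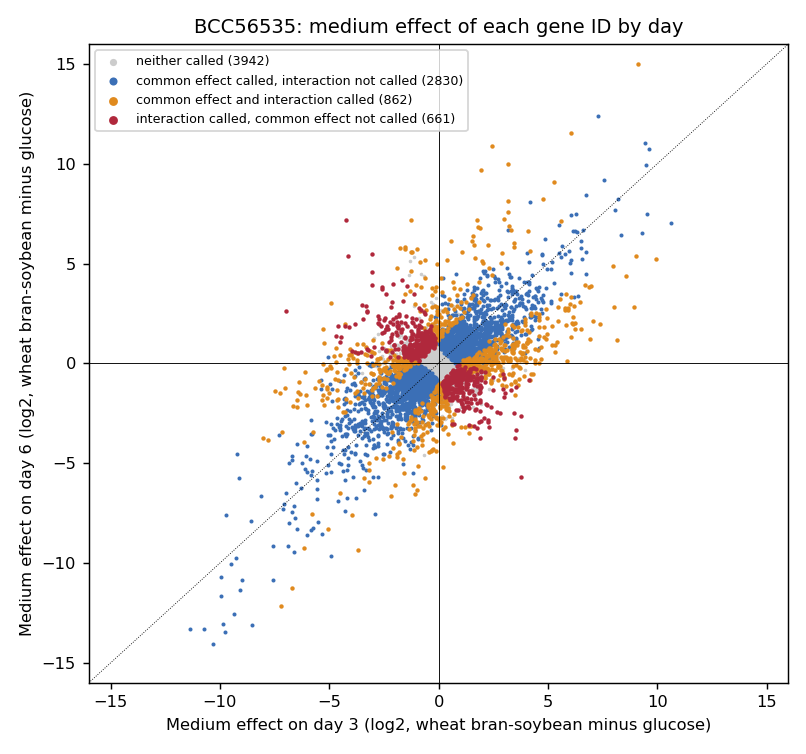
Medium effect on day 3 (x axis) against day 6 (y axis) for 8295 IDs, as log2 differences of wheat bran-soybean minus glucose in BCC56535. IDs on the dotted diagonal have the same effect on both days, and the 1523 IDs whose effect differed between days by limma are orange (862, common effect also called) or red (661, common effect not called), against blue for the 2830 with a common effect alone.

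The difference between days was tested directly, as the day 6 effect minus the day 3 effect. This interaction was called for 1523 of 8295 IDs (18.4%), with 694 effects higher on day 6 (8.37%) and 829 lower (9.99%), by limma at an adjusted p of 0.05. The median difference among them was 2.08 in size and the smallest called was 0.959, and 333 differences were at least 10-fold. A common effect was also called for 862 of the 1523 IDs and was not called for 661. Over all IDs it was called for 44.5%. The count rested on single libraries more than that of the common effect: it was 956 without glucose day 3 replicate A, 725 and 397 without wheat bran-soybean day 3 replicate A and B, and 744 and 757 without wheat bran-soybean day 6 replicate A and B. When all 24 libraries of the 3 strains shared the estimate of the spread, the count was 2756, with 1491 of the 1523 among them.

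Most of the day-dependent effects were called on a single day. The largest class, 366 IDs, was higher in wheat bran-soybean on day 3 and not called on day 6, with median effects of 1.94 and -0.16. A further 276 IDs were lower on day 3 alone (medians -1.84 and 0.33). An effect called on day 6 and not on day 3 was a fall for 239 IDs (0.22 and -1.73) and a rise for 225 (-0.35 and 1.55). On both days, 119 were higher (3.78 and 2.57, with 76 larger on day 3) and 80 lower (-3.10 and -2.72), and 62 were called on neither day alone. The effect turned from higher to lower for 81 IDs (1.35 and -1.41) and from lower to higher for 75 (-1.72 and 1.87). These counts and medians describe IDs picked by the same contrast and are not a further test.

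Called changes of level with time were more frequent in wheat bran-soybean than in glucose, over all IDs and among the day-dependent IDs alike. The order among the day-dependent IDs is thus not read as particular to them. Over all IDs, the change from day 3 to day 6 was called for 2034 in wheat bran-soybean (24.5%), of which 874 rose (10.5%) and 1160 fell (14.0%), and for 1124 in glucose (13.6%), of which 528 rose (6.37%) and 596 fell (7.19%). Both counts moved with single libraries, to 676 to 1177 when any wheat bran-soybean library was left out, and to 661, 719 and 354 without glucose day 3 replicate A, glucose day 3 replicate B and glucose day 6 replicate A. Their order turned when some wheat bran-soybean libraries were left out: the counts were 676 in wheat bran-soybean and 814 in glucose without day 3 replicate B, and 941 and 947 without day 6 replicate A. Among the 1523 day-dependent IDs, the change with time was called in wheat bran-soybean only for 822 (54.0%) and in glucose only for 367 (24.1%). It was called in both for 146 (9.59%, 110 of them in opposite directions) and in neither for 188 (12.3%). These classes refer to calls, and a change that was not called may still be present. With each library left out in turn, calls in wheat bran-soybean only still outnumbered those in glucose only, most narrowly without wheat bran-soybean day 3 replicate B. The larger of the 2 changes was that in wheat bran-soybean for 962 IDs (63.2%). Of the 829 effects that were lower on day 6, 557 went with a called fall in wheat bran-soybean and 238 with a called rise in glucose. Of the 694 that were higher on day 6, 394 went with a called rise in wheat bran-soybean and 256 with a called fall in glucose.

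**Figure D3:**
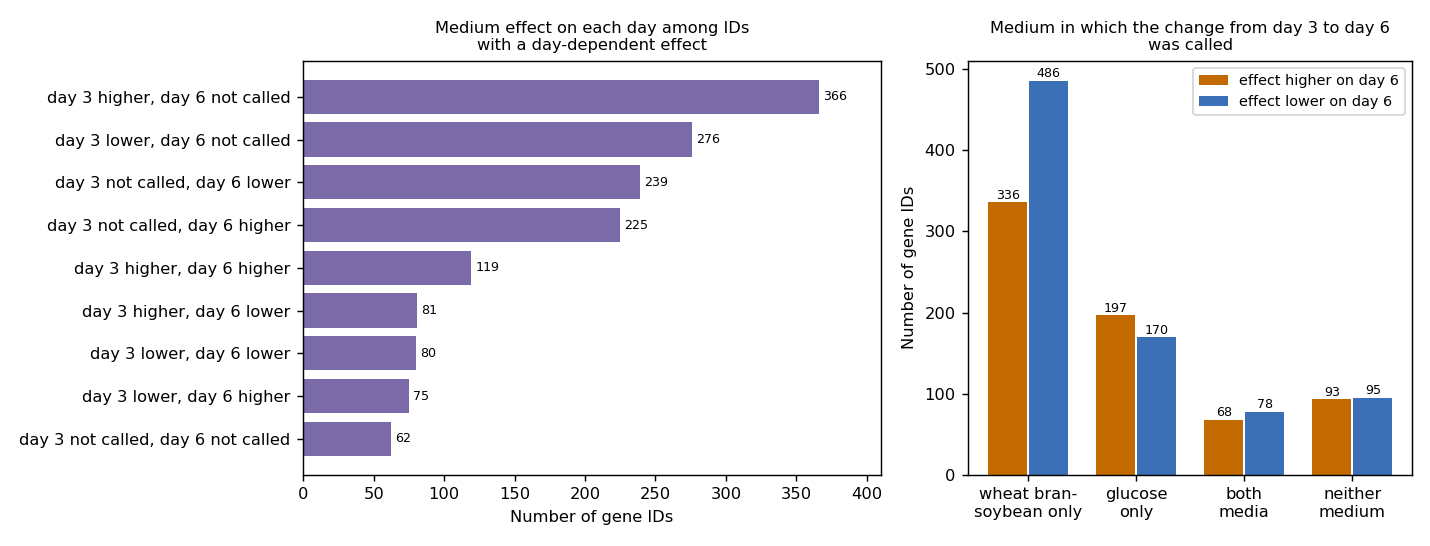
Left, the number of IDs by the direction of the medium effect on day 3 and on day 6 among the 1523 IDs with a day-dependent effect. Right, the number of IDs by the medium in which the change from day 3 to day 6 was called, for the 694 effects higher and the 829 lower on day 6, with 822 of 1523 IDs in wheat bran-soybean only.

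The largest difference between days was that of acu04733_1. Its level was 17.6 and 372 in glucose on day 3, 10.1 and 5.76 in glucose on day 6, 0.935 and 5.06 in wheat bran-soybean on day 3, and 2592 and 784 in wheat bran-soybean on day 6. The order of the media was thus reversed between the days, with no overlap on either. The interaction was 11.43 (SE 1.76, adjusted p = 0.0075, limma), made up of -4.23 on day 3 (adjusted p = 0.029) and 7.20 on day 6 (adjusted p = 0.0038). The change over time was called in wheat bran-soybean (8.29, adjusted p = 0.0034, limma). The fall on day 3 was not called in 6 alternative analyses, for example without glucose day 3 replicate B, the high one (adjusted p = 0.11).

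A similar turn from lower to higher was found for acu00492_1, at 8.79 and 169 in glucose on day 3, 2.52 and 10.6 in glucose on day 6, 0.935 and 0 in wheat bran-soybean on day 3, and 491 and 198 in wheat bran-soybean on day 6. As for acu04733_1, glucose day 3 replicate B was the higher of its pair, and the wheat bran-soybean level appeared on day 6. The interaction was 9.53 (SE 1.69, adjusted p = 0.011, limma), with -4.15 on day 3 (adjusted p = 0.026) and 5.38 on day 6 (adjusted p = 0.011). The day 3 effect was not called in 5 alternative analyses and the day 6 effect in 2, without glucose day 6 replicate A (adjusted p = 0.065) and without wheat bran-soybean day 6 replicate A (adjusted p = 0.067).

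The difference of acu06764_1 arose in glucose. Its level there was 2181 and 140.4 on day 3 and 1.26 and 0 on day 6, against 4.68 and 1.01 in wheat bran-soybean on day 3 and 14.8 and 12.7 on day 6. The glucose level fell by 7.77 on the log2 scale (adjusted p = 0.0062, limma), while the wheat bran-soybean level stayed at 14.8 or less. The interaction was 9.58 (SE 1.6, adjusted p = 0.0094, limma), with an effect of -6.96 on day 3 (adjusted p = 0.0023) and 2.62 on day 6 (adjusted p = 0.11). With voom weights on the recovered reads, the interaction was not called (adjusted p = 0.13).

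In the negative direction the largest difference was that of acu01714_1, at 0 and 0.949 in glucose on day 3, 232 and 1300.0 in glucose on day 6, 24.3 and 40.5 in wheat bran-soybean on day 3, and 9.54 and 7.83 in wheat bran-soybean on day 6. This ID appeared in glucose between the days, a rise of 7.83 on the log2 scale (adjusted p = 0.0016, limma). The interaction was -9.48 (SE 1.11, adjusted p = 0.0038, limma), with 3.78 on day 3 (adjusted p = 0.0066) and -5.70 on day 6 (adjusted p = 0.0014). The ratio on day 3 rests on 1 read in glucose and was 63.0 (95% exact interval 10.9 to 2530), and its call was lost without wheat bran-soybean day 3 replicate B (adjusted p = 0.054), with voom weights (adjusted p = 0.10) and with 10 added before taking logs (adjusted p = 0.059).

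For acu01034_1 the level was 22 and 53.1 in glucose on day 3, 89.6 and 436 in glucose on day 6, 293 and 571 in wheat bran-soybean on day 3, and 2.12 and 51.8 in wheat bran-soybean on day 6. The media exchanged their order between the days, with a wide spread between replicates on day 6. The interaction was -7.25 (SE 1.68, adjusted p = 0.024, limma), with 3.50 on day 3 (adjusted p = 0.047) and -3.75 on day 6 (adjusted p = 0.043). It was not called without glucose day 3 replicate A (adjusted p = 0.061), glucose day 6 replicate B (adjusted p = 0.066), wheat bran-soybean day 3 replicate A (adjusted p = 0.06) or wheat bran-soybean day 3 replicate B (adjusted p = 0.094). Each of its day effects was lost in 6 alternative analyses.

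The response of BCC56535 was then set against that of the other strains, in a fit of all 24 libraries with 8509 IDs. The common medium effect differed from that of BCC199 for 4139 IDs (48.6%), 2113 higher (24.8%) and 2026 lower (23.8%), and from that of HUT2365 for 4253 (50.0%), 2099 higher (24.7%) and 2154 lower (25.3%), by limma. Both contrasts use the same 8 BCC56535 libraries. The effect differed from both strains in the same direction for 1871 IDs (22.0%), 938 higher in BCC56535 and 933 lower. Of these, 24 were too low in BCC56535 for the tests within the strain and entered through the levels of the other strains. A common effect was also called in the fit of BCC56535 alone for 1251 of the 1871. That effect was higher in wheat bran-soybean and above both strains for 588, and lower and below both for 582. A difference between strains can thus rest on the response of the other strains. The sources used here do not say how well each strain's reads aligned, and its part in these differences was not tested.

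The dependence of the medium effect on the day was widest in BCC56535 by 3 measures. Medium and day combined took 13.6% of the variance in BCC56535, 8.17% in BCC199 and 4.87% in HUT2365, each within the strain's own 8 libraries and over the same IDs. The median size of the interaction over all IDs was 0.752, 0.472 and 0.402, and the interaction was called for 2756 IDs (32.4%), 883 (10.4%) and 68 (0.799%). In a direct test the interaction of BCC56535 differed from that of BCC199 for 1913 IDs (22.5%), 869 higher (10.2%) and 1044 lower (12.3%), and from that of HUT2365 for 614 (7.22%), 266 higher (3.13%) and 348 lower (4.09%). It differed from both in the same direction for 401 IDs (4.71%), 163 higher and 238 lower. The SD between replicates was 0.560 to 0.788 in the groups of BCC56535. In the other strains, only glucose on day 3 of BCC199 (0.775) and wheat bran-soybean on day 3 of HUT2365 (0.807) lay above 0.560. The calls in the 3 strains used 1 shared estimate of the spread, and the fit of BCC56535 alone called 1523 IDs. How far the spread between replicates adds to the 3 measures was not tested.

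**Figure D4:**
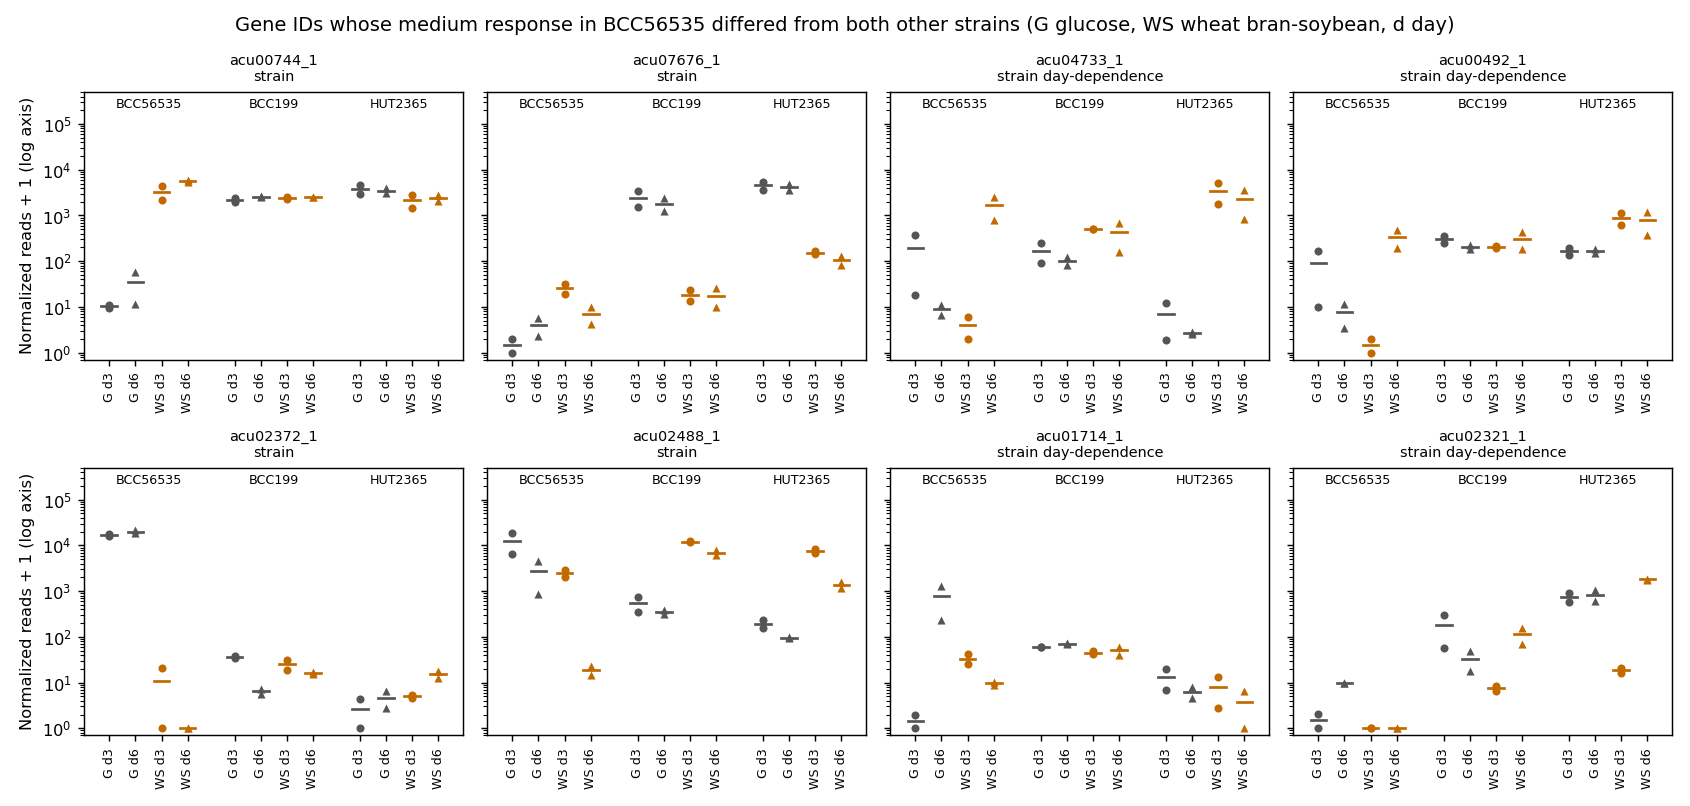
Levels of 8 IDs whose medium response in BCC56535 differed from both other strains, in all 24 libraries (normalized reads + 1, log axis), points for libraries and bars for group means. acu02372_1 lies at 16442 to 21533 in BCC56535 in glucose and at 0 to 36.6 in both other strains, and acu00744_1 is low in glucose in BCC56535 alone.

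The fall of acu02372_1 was found in BCC56535 alone. In BCC199 its level ran from 4.60 to 36.6 in glucose and from 14.3 to 30.9 in wheat bran-soybean, and in HUT2365 from 0 to 16.7 over both media. BCC56535 stood above both strains in every glucose library, and on day 6 in wheat bran-soybean it stood below them, at 0 and 0 against 14.3 and 16.4 in BCC199 and 16.7 and 11.9 in HUT2365. Its common effect minus that in BCC199 was -12.66 (adjusted p = 2e-09, limma), and minus that in HUT2365 -13.55 (adjusted p = 1.2e-09, limma).

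The reverse pattern was found for acu00744_1, at 9.88 and 8.54 in glucose on day 3, 56.8 and 10.6 in glucose on day 6, 4304 and 2132 in wheat bran-soybean on day 3, and 5447 and 5904 on day 6 in BCC56535. In the other strains it ran from 1483 to 4749 over both media, so that it was low only in BCC56535 in glucose. The common effect was 7.89 (SE 0.47, adjusted p = 9.5e-06, limma), higher than in BCC199 by 7.83 (adjusted p = 5e-09) and than in HUT2365 by 8.60 (adjusted p = 2.4e-09). A further ID, acu07676_1, stayed at 0 to 31.4 in BCC56535 in both media. In glucose it reached 1254 to 3343 in BCC199 and 3606 to 5449 in HUT2365, and the common effect of 2.04 in BCC56535 (adjusted p = 0.014) exceeded theirs by 8.84 and 7.13. That difference came from the glucose level of the other strains, which fell in wheat bran-soybean to 8.77 to 24.6 and to 83.2 to 163.

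The direction of the response differed between strains for acu02488_1. In BCC56535 it was at 6489.6 and 18767 in glucose on day 3, 880.0 and 4501 in glucose on day 6, 2002 and 2888 in wheat bran-soybean on day 3, and 13.8 and 22.5 on day 6. In the other strains it was higher in wheat bran-soybean, at 6238 to 12334 against 317 to 741 in BCC199 and at 1152 to 8212 against 91.1 to 231 in HUT2365. In BCC56535 the common effect was -4.43 (adjusted p = 0.00035, limma), and its differences from BCC199 and HUT2365 were -8.87 and -8.96. It also depended on the day in BCC56535 (-4.47, adjusted p = 0.026, limma).

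Of the day-dependent IDs, acu04733_1 and acu00492_1 had higher interactions than both other strains (11.48 and 11.49 for the first, 8.48 and 9.91 for the second), and acu01714_1 a lower one (-9.37 and -9.41). In BCC199 and HUT2365 none of the 3 IDs showed a turn of such size. There acu04733_1 was higher in wheat bran-soybean on both days by group mean, and acu01714_1 lay at 0 to 72.7. The level of acu00492_1 was 135 to 1185 in all 16 libraries. Its group means in BCC199 turned the same way, from 304 in glucose and 202 in wheat bran-soybean on day 3 to 203 and 309 on day 6. That interaction was not called (1.04, adjusted p = 0.68, limma). With voom weights the difference from HUT2365 was not called for acu04733_1 (adjusted p = 0.15) or acu01714_1 (adjusted p = 0.077). The other ID taken by the naming rule, acu02321_1, lay at 0 to 8.84 in all BCC56535 libraries, too low for the tests within the strain. It entered the 24-library fit through the levels of the other strains, so its difference shows no response of BCC56535. In the other strains its wheat bran-soybean level was higher on day 6 than on day 3, 69.1 and 158 against 7.22 and 5.61 in BCC199 and 1881 and 1719 against 20.3 and 14.9 in HUT2365.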

How the data were processed

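Mycelial RNA was depleted of ribosomal RNA, enriched for messenger RNA and sequenced as Illumina paired-end libraries on a HiSeq2000, per the labels' protocols. HISAT2 2.1.0, Picard and StringTie were used, per the submitters' processing notes. The sources used here do not give their roles, the genome build, the counting and normalization tools or the use of strand. Whether reads of similar or overlapping genes were kept apart is therefore not known. The deposited table holds a normalized signal per gene ID, the authors' values, whose minimum is 1. Minus 1, each value was a whole multiple of a step per library (0.935 to 1.26) for 100.0% of IDs, within 0.02 of a step, which gave the recovered reads. IDs that reached a deposited value of 10 in 2 or more libraries were kept, 8295 for the 8 BCC56535 libraries and 8509 for all 24.

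Linear models on log2(deposited value + 1) were fitted here with limma 3.58.1 (R 4.3.3), with group means for medium by day (4 residual degrees of freedom) and, for strain comparisons, 12 group means over 24 libraries (12 residual degrees of freedom). Variances were moderated with an intensity trend, contrasts were two-sided, and Benjamini-Hochberg adjustment covered all IDs kept, with a threshold of 0.05. The scripts were tested on simulated data. Tables and figures were made with Python 3.11.15, numpy 2.4.6, pandas 2.3.3, scipy 1.17.1 and matplotlib 3.10.9. Floors are 3 reads per library, and ratios have 95% exact binomial intervals. Both cover counting error only.

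IDs have no names, so at most 2 per direction are given per class, each with a mean of at least 100 in its highest group: the largest common effects without a called interaction and without overlap between media, the largest interactions without overlap on at least 1 day, the clearest opposite effects, 0 reads in a medium, the most abundant, and the largest differences from both other strains. An ID may belong to more than 1 class. The libraries compared and these rules were chosen with earlier results of these data known. No gene list was used, since IDs carry no names.

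Alternatives were nothing or 10 added before taking logs, no filter, trimmed-mean scaling, quantile normalization, an additive fit, voom weights on the recovered reads, the replicate letter as a block, all 24 libraries in the fit, and each BCC56535 library left out in turn.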

Additional observations from a re-analysis of the deposited data

Results flagged for a closer look

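Effects that differed between days or strains by a direct test are listed here with their values, all as log2 differences from limma. The medium effect of BCC56535 differed between day 3 and day 6 for 1523 IDs. Among the named IDs, which have a mean of at least 100 in their highest group, the difference was 11.43 for acu04733_1, 9.58 for acu06764_1 and 9.53 for acu00492_1, and -9.48 for acu01714_1 and -7.25 for acu01034_1. Of the IDs with 0 reads in glucose, acu02382_1 differed by 5.56 and acu01182_1 by 4.53 between the days. These are their changes within wheat bran-soybean alone. For acu02488_1, named for its difference from the other strains, the day difference was -4.47.

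The common medium effect differed from that of both other strains in the same direction for 1871 IDs, of which 1251 also had a common effect called within BCC56535. Relative to BCC199 and to HUT2365, it was higher in BCC56535 by 7.83 and 8.60 for acu00744_1 and by 8.84 and 7.13 for acu07676_1. The differences were -12.66 and -13.55 for acu02372_1 and -8.87 and -8.96 for acu02488_1. The level of acu07676_1 was 0 to 31.4 in every BCC56535 library, and its differences came from the glucose level of the other strains.

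The day dependence of the medium effect differed from that of both other strains for 401 IDs. The differences from BCC199 and from HUT2365 were 11.48 and 11.49 for acu04733_1, 8.48 and 9.91 for acu00492_1, and -9.37 and -9.41 for acu01714_1. For acu02321_1 they were -7.88 and -8.51, but it lay at 0 to 8.84 in every BCC56535 library and passed the filter only through the other strains, so these values show nothing of a response in BCC56535. Groups held 2 libraries each, too few for a check of single outlying libraries. No column of the deposited table was outside the measurements used.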

How the results depend on the processing

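No named log2 change that was called changed sign under the alternatives that were run. Orders between counts did turn: without wheat bran-soybean day 3 replicate B, day changes numbered 676 in wheat bran-soybean and 814 in glucose, and under quantile normalization more IDs rose with time in glucose (583) than fell (555). The common effect stayed within 1.5 times its count of 3692 throughout, at 2900 to 3569 with 1 library left out and 2569 in the additive fit. With all 24 libraries in the fit, the spread is estimated from more libraries and the counts were higher: 2756 day-dependent effects, 2345 day changes in glucose and 3170 in wheat bran-soybean. Leaving out 1 library gave 397 to 1324 day-dependent effects, 1878 to 3391 effects on day 3, 1451 to 2701 on day 6, 354 to 1006 day changes in glucose and 676 to 2123 in wheat bran-soybean. The same omissions gave 3847 to 4242 and 3826 to 4296 differences of the common effect from BCC199 and HUT2365, and 1484 to 2180 and 493 to 780 differences of the day dependence. A group then held 1 library, which was assumed to vary like the others.

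Of the alternatives for single named results, 583 kept direction and call, 45 lost the call and 4 gained it. The causes were not tested. With the replicate letter as a block, counts were 3699 for the common effect, 1583 for day-dependent effects, 3216 and 2708 for day 3 and day 6, 1210 and 2087 for the day changes in glucose and wheat bran-soybean, and 4158, 4262, 1903 and 624 for the strain differences, and no call of a named ID changed. The correlations of B minus A between the 4 groups ran from -0.017 to 0.232, and 4 of the 6 exceeded 0.1. Those 4 were between groups that share a medium or a day, and the others (-0.017 and -0.0076) were between groups that share neither. The labels tie the letters to no shared batch, and the main fit did not pair the libraries. The block used a single letter term for all groups, so a pairing within a medium or a day was not tested. Planned count-model tests on the recovered reads were not run. With 4 residual degrees of freedom, changes under 0.379 (common) or 0.959 (between days) were not called at any level.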

Other observations

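IDs consist of a number and a member number, and 1009 of the 8615 share their number with another ID. The sources used here do not say what either number stands for. Among 385 numbers with at least 2 IDs kept, which hold 901 IDs, 57.3% of IDs had a common medium effect, against 43.0% of the other IDs. Of the 165 numbers with at least 2 called IDs, 79 held IDs called in both directions, 37 only higher ones and 49 only lower ones. No such share was computed for unrelated IDs, so these counts do not show whether IDs that share a number respond alike.

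IDs whose numbers follow each other had more similar medium effects than IDs farther apart. Over 6961 pairs of IDs with consecutive numbers, taken from numbers with a single ID kept, Pearson's r of the common effect was 0.212 across IDs, and 881 of the 1363 pairs with both called had the same direction (64.6%). At a distance of 2 numbers r was 0.0708, at 3 it was 0.0445, at 10 it was 0.0016 (51.4% in the same direction) and at 100 it was 0.0084. For the interaction, r was 0.204 at a distance of 1 and -0.0111 at 10. All IDs of a pair come from the same 8 libraries, and IDs are not independent replicates, so these are descriptions.

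Among the IDs with no call for a difference between days, acu05036_1 was given above as the largest rise. It has a neighbour in number, acu05035_1, which was singled out after its values were seen. The common effect of acu05035_1 was 12.06 (SE 0.40, adjusted p = 5.9e-07, limma) and its interaction was 5.87 (adjusted p = 0.0057, limma). No read of it was counted in glucose on day 6, so both fitted values depend on the constant added before taking logs. As the ID was picked for its values, they are a description and add no support to the similarity of neighbours.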
